A study of Mus musculus with 144 samples.

Results

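The liver of mice labelled nmrHAS2 was compared between 24 months (old) and 6 months (young) of age, over all genes and with females and males weighted equally. The 12 libraries were all those labelled as liver, nmrHAS2 and either age, 3 for each sex and age, out of 144 libraries in the study. The study profiled RNA from 6 tissues of nmrHAS2 mice and of control mice labelled CreER, to look for what accompanies the better health of nmrHAS2 mice in late life. nmrHAS2 mice carry the hyaluronan synthase 2 gene of the naked mole-rat, a long-lived rodent, behind a stop cassette that a tamoxifen-activated Cre recombinase (CreER) removes. The CreER recombinase is carried by both genotypes, and the 12 CreER liver libraries of the same ages and sexes are set beside the results where a difference between genotypes was tested. The labels give tissue, sex, genotype and age. Strain, tamoxifen dose, the animal behind each library and the time of day of collection do not appear in the sources used here. The p-values therefore reflect how far these libraries vary, and that variation may in part be technical.

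Hyaluronan is a long polysaccharide of the extracellular matrix that synthases at the cell membrane extrude, that Cd44 and other receptors bind, and that the sinusoidal endothelium of the liver takes up from blood. Hepatocytes, the main cells of the liver, make plasma proteins, bile acids and urea and clear foreign compounds with cytochrome P450 enzymes, many of which differ between the sexes under growth hormone. The ageing liver of mice is known for gathering immune cells, for interferon and inflammatory gene activity, and for losing part of these hepatocyte programmes.

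Values were estimated read counts per gene, and levels are given as counts-per-million values (CPM) after TMM scaling. Library totals ran from about 20095800 to 97437200 counts, so that 3 counts, the limit set by a count of 0, came to between 0.0308 and 0.149 CPM. These limits cover counting error only. In the 6 female libraries 13.4 to 16.0% of counts fell on 10 RNAs that carry no poly(A) tail, and in the 6 male libraries 0.000390 to 0.0163%, so sex and library preparation cannot be told apart. Among females, old 1 and old 2 had 26.1 and 26.6% of their values not whole and totals of about 39679600 and 39923400 counts, against 58.9 to 65.2% and 78025300 to 97437200 counts in old 3 and the 3 young libraries. A comparison within library kind therefore keeps only old female 3 on the old female side, leaves the males as they are, and assumes that this 1 library varies like the other groups. Young male 2 stood apart: it had 14538 genes above 0 against 17611 to 21077 in the other 11 male livers of both genotypes, and 234 genes at 0 that all of those held. Old male 2 and old male 3 were the closest pair, with a biological coefficient of variation of 0.0759 against 0.115 to 0.317 in other pairs of a group, yet differed beyond counting noise. Beside a call stated below, its adjusted p is given where the call was lost without young male 2 or within library kind, and beside a count of calls its value there where it moved by more than 1.5 times.

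The transgene was detected at a low level. Its counts were 3, 1 and 21 in old females, 1, 5 and 3 in old males, 38, 34 and 49 in young females, and 3, 0 and 1 in young males. The CreER livers held 0 to 3 counts, so 7 of the 12 nmrHAS2 libraries did not stand above the controls and the transgene checks the genotype label of the other 5 only. Its level did not pass the test for a change with age with sexes weighted equally (log2 change -0.25 ± 0.75, adjusted p = 0.86). The sexes were unlike in this. Before TMM scaling it was at 0.0756, 0.0250 and 0.239 CPM in old and 0.402, 0.436 and 0.503 in young females, without overlap. In males it was at 0.0416, 0.199 and 0.128 CPM when old and 0.111, 0 and 0.0441 when young, with overlap. The mouse Has2 gene stayed at 0 to 7 counts per library and was too low to be tested. Alb, which encodes the hepatocyte product albumin, reached 28304 to 168226 CPM across the 12 libraries, and all 20 hepatocyte markers listed were measured.

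Of 17270 genes tested, 1914 were higher (11.1%) and 1046 lower (6.06%) in old than in young nmrHAS2 liver at an adjusted p under 0.05, from edgeR's quasi-likelihood test fitted on all 24 liver libraries with Benjamini-Hochberg adjustment over all genes. Changes below are log2 changes, old minus young, with their standard error, from this fit, and "rose" or "fell" means that this test was passed. In males alone 2326 genes were higher (13.5%) and 1306 lower (7.56%), and in females alone 502 were higher (2.91%) and 597 lower (3.46%). Both sexes passed in the same direction for 158 genes, 96 higher and 62 lower, which is 4.35% of the male and 14.4% of the female calls, and in opposite directions for 66. The change in females minus the change in males, tested as an interaction, was above 0 for 848 genes (4.91%) and below 0 for 1193 (6.91%), around a median of -0.11 over all genes. Old and young libraries did not overlap in either sex for 481 genes with old above (2.79%) and 376 with old below (2.18%). Without young male 2, 2300 of the 2960 calls were kept in the same direction, and 2031 of the 3632 male calls, with 9.5% of genes higher and 5.67% lower, 8.56% higher and 4.37% lower in males, and 3.58% higher and 4.24% lower in females. Within library kind 1558 of the 2960 were kept, with 6.93% higher and 4.04% lower, and 2.78% higher and 2.23% lower in females. The difference between sexes was above 0 for 3.32% and below 0 for 4.85% without young male 2, and for 3.13% and 4.05% within library kind. Without old male 1, 1874 genes were called with age and 1842 in males. A fit on only the libraries compared called 1465 genes with age, 492 in males, 445 in females and 622 as different between sexes.

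**Figure D1:**
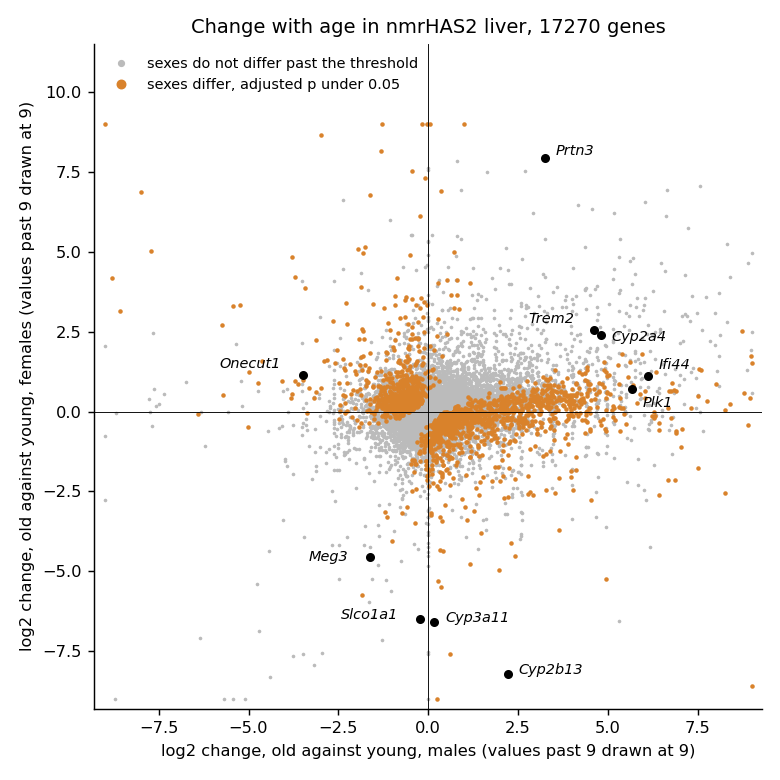
Log2 change with age in female nmrHAS2 liver (y axis) against male nmrHAS2 liver (x axis) for every gene tested, each point 1 gene, with changes beyond 9 drawn at the edge. Orange points passed the test of a difference between sexes: 848 lie higher in females and 1193 higher in males.

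Interferon response genes, which cells switch on against viruses and in inflamed tissue, stood out in old males. All 24 genes of the list rose in males, with a median change of 3.52 against 0.06 over all genes, whereas 0 of 24 passed in females (1 without young male 2), at a median of 0.47 against 0.03. With the sexes weighted equally 23 of 24 rose, and the difference between sexes passed for 22 of 24, all with the lower change in females. Ifi44, an interferon-induced protein, was at 65.9, 127 and 129 CPM in old males 1, 2 and 3 and at 1.72, 1.62 and 1.32 in young males. In females it was at 12.2, 3.17 and 3.83 CPM when old and 3.92, 3.07 and 1.85 when young. The old males lay above all young males without overlap, while old and young females overlapped. The change was 6.11 ± 0.51 in males (adjusted p = 9.8e-07, n = 3 old and 3 young libraries, as for every single-sex change, edgeR) and 1.11 ± 0.41 in females (adjusted p = 0.12), and the difference between sexes was -4.99 ± 0.62 (adjusted p = 0.00020).

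Irf7, the transcription factor that amplifies type I interferon production, was at 207, 234 and 232 CPM in old males and 14.3, 14.7 and 22.4 in young males. Female levels were 59.5, 28.1 and 30.5 CPM when old and 19.2, 27.3 and 15.1 when young. Old libraries lay above young ones in both sexes, by far more in males, where the change was 3.71 ± 0.33 (adjusted p = 1.1e-06), than in females, where it was 0.94 ± 0.30 and missed the threshold (adjusted p = 0.066). Oasl2 and Oas1a, of the oligoadenylate synthetase family that senses double-stranded RNA, showed the same order. Oasl2 was at 59.8, 58.6 and 57.4 CPM in old males and 2.69, 4.87 and 4.56 in young males, and rose in males by 3.86 ± 0.35. Oas1a rose in males by 3.25 ± 0.33, from 3.28, 5.96 and 3.79 CPM to 47.9, 39.03 and 36.8. Cxcl10, an interferon-induced chemokine, was the 1 gene of the list that missed the threshold with sexes weighted equally (adjusted p = 0.057), and it rose in males by 2.48 ± 0.67.

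The old males were not alike. Summed over the list, interferon genes reached 1526, 3335 and 3331 CPM in old males 1, 2 and 3, against 312, 291 and 331 in young males, 618, 309.9 and 386 in old females and 347, 436 and 249 in young females. Old male 1 lay between, above all young males and well below old males 2 and 3. The list was called as often without young male 2 (23 of 24) and in 19 of 24 within library kind. In old males the RNAs without a poly(A) tail were also higher than in young males, at 72.7, 168 and 141 CPM in sum against 4.26, 4.06 and 7.29, and 6 of 15 such RNAs tested, from a longer list, rose in males; the part of this in the male results was not tested.

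**Figure D2:**
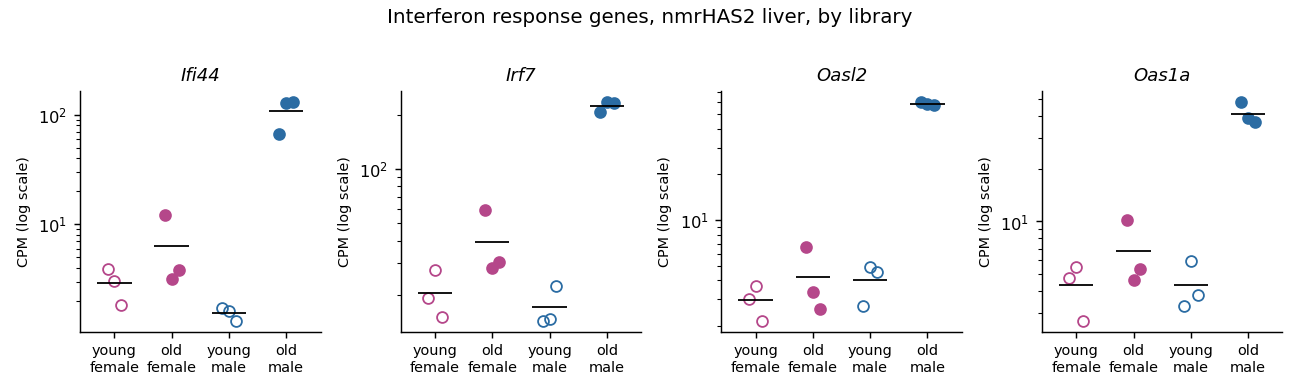
Level of 4 interferon response genes in each nmrHAS2 liver library, in CPM on a log axis, grouped by sex and age, each point 1 library. For every gene the 3 old males lie above the 3 young males, and for Ifi44 they lie between 65.9 and 129 CPM.

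The members moved together, so their promoters are shown for the motif GAAANNGAAA (or TTTCNNTTTC on the other strand), the core that interferon-activated factors are known to bind. In the 250 bases before the start site, taken from RefSeq on GRCm38.p6, 10 of the 17 list genes found in the table held it (58.8%), against 3.39% of 12211 tested liver genes in the table and 2.98% of all 32851 start sites. The 6 genes with at least 2 matches, which may overlap each other, are printed as the 160 bases up to the start, 5′ to 3′ in the direction of the gene, with matched bases in capitals. They are Isg15 at chr4:156200819-156200978 on the minus strand, Ifit1 at chr19:34640729-34640888 and Ifit3 at chr19:34583369-34583528 on the plus strand, Oas1a at chr5:120907526-120907685 and Bst2 at chr8:71537473-71537632 on the minus strand, and Gbp3 at chr3:142559884-142560043 on the plus strand. Apart from Oas1a these were chosen after their values and sequences were seen. A match is a description of the letters, not evidence of a bound factor.
Isg15: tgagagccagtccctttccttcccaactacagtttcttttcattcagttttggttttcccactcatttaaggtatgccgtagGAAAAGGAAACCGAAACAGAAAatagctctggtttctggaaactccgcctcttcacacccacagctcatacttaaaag
Ifit1: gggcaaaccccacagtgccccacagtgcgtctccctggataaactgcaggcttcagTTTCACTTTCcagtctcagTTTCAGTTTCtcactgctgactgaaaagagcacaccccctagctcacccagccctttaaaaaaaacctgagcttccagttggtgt
Ifit3: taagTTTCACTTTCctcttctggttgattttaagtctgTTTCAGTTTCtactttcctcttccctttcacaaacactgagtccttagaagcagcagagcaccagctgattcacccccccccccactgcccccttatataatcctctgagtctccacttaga
Oas1a: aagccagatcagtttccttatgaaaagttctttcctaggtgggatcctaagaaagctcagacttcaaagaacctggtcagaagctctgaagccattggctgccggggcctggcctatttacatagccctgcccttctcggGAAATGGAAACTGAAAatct
Bst2: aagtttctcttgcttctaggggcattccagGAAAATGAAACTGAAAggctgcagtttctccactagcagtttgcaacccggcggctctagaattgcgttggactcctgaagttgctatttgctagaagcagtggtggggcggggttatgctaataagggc
Gbp3: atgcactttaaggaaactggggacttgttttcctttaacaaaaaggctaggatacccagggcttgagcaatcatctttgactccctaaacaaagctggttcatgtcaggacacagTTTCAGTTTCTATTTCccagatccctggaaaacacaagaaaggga

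Isg15, the ubiquitin-like modifier whose promoter above holds 3 matches in one run, was at 37.4, 187 and 209 CPM in old males and 5.23, 3.84 and 4.56 in young males. The female libraries held 6.21, 2.06 and 2.73 CPM when old and 2.52, 3.28 and 1.35 when young. Old male 1 lay well below old males 2 and 3 but above every young male, and the change in males was 4.99 ± 0.58 (adjusted p = 1.4e-05). Ifit1 and Ifit3, which bind viral RNA, rose in males by 5.55 ± 0.64 and 5.34 ± 0.58, again with old male 1 the lowest old male (61.8, 335 and 354 CPM for Ifit1). Gbp3, a guanylate-binding protein, rose in males by 3.50 ± 0.56, and Bst2, the membrane tether tetherin, by 1.53 ± 0.24.

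Markers of macrophages that enter tissue or take up lipid rose with sexes weighted equally for 16 of 18, with 0 falling, at a median of 1.70. In males 15 rose, and in females 6 rose and 1 fell. As an interaction, the difference between sexes was above 0 for 1 and below 0 for 5, and without young male 2 for 0 and 4. Summed, they were at 1186, 431 and 357 CPM in old and 157, 154 and 218 in young males without overlap, and at 670.1, 354 and 570.2 in old and 233, 417 and 289 in young females, where the ages overlapped. In bulk liver, more cells of a type and more RNA per cell cannot be told apart. Trem2, the lipid receptor of these macrophages, was at 2.597, 4.59 and 4.42 CPM in old and 0.693, 0.545 and 0.732 in young females. In males it was at 14.5, 4.36 and 3.71 CPM when old and 0.234, 0 and 0.682 when young. Old and young did not overlap in either sex, and the change with sexes weighted equally was 3.58 ± 0.42 (adjusted p = 2.8e-05, n = 6 old and 6 young libraries, as for every such change). Mmp12, macrophage elastase, rose by 2.85 ± 0.35, with 6.13, 3.55 and 9.53 CPM in old and 0.568, 0.741 and 1.104 in young females. Chil3, a chitinase-like protein of activated macrophages, rose by 4.13 ± 0.59, and Cd9, a tetraspanin, by 1.83 ± 0.27, where old female 3 was far above the rest (26.4, 43.04 and 140.2 CPM in old females). Spp1, osteopontin, did not pass (change -0.38 ± 0.27, adjusted p = 0.36), with 11.2 to 41.7 CPM in old and 21.98 to 62.2 in young libraries.

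Markers of the resident macrophages of the liver, the Kupffer cells, were mixed. Of 14, 7 rose with sexes weighted equally, but only 4 without young male 2 and 1 within library kind. In males 8 rose and in females 0 passed (1 fell within library kind). For these markers the difference between sexes was above 0 for 1 and below 0 for 3, and without young male 2 for 0 and 2. Vsig4, a complement receptor of Kupffer cells, was at 355, 49.9 and 46.9 CPM in old males and 22.7, 16.1 and 29.2 in young males, so that all old males lay above and old male 1 was far above the other old males. In females it was at 94.03, 69.3 and 80.8 CPM when old and 49.9, 93.4 and 66.4 when young, with overlap. C1qb, a chain of complement C1q, followed the same order, with 299, 72.5 and 61.8 CPM in old and 28.6, 35.1 and 41.9 in young males. Its change missed the threshold within library kind (adjusted p = 0.052).

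Lymphocyte markers rose mainly in males by count. Of 20 T and NK cell markers 15 rose at a median of 2.04, falling to 7 within library kind, and 17 rose in males against 2 in females (1 within library kind, and 1 fell without young male 2). The difference between sexes was passed by 10, all lower in females, and by 6 without young male 2. In sum they were at 66.6, 28.4 and 24.1 CPM in old and 6.29, 3.205 and 4.78 in young males, and at 19.4, 15.7 and 10.8 in old and 7.79, 8.51 and 8.53 in young females. Old and young sums did not overlap in either sex, and old male 1 was the highest. Ccl5, a chemokine of activated T cells, was at 17.2, 5.91 and 4.36 CPM in old and 0.547, 0 and 0.256 in young males, a change of 5.04 ± 0.85 in that sex. Prf1, the pore-forming perforin of killer cells, rose in both sexes and was higher in females, at 3.09, 3.299 and 4.84 CPM in old and 0.341, 0.335 and 0.465 in young, a change of 3.29 ± 0.55. The checkpoint receptor Pdcd1 and the granzyme Gzmk were at 0 in every young male, and at 1.94, 1.34 and 0.825 and 1.72, 1.02 and 0.688 CPM in the old males. Cd4 did not pass (change 1.07 ± 0.45, adjusted p = 0.11).

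Of 16 B and plasma cell markers 8 rose, 10 in males and 2 in females (1 within library kind). For 3 of these markers the difference between sexes passed, all lower in females, and for 1 without young male 2. Ighm, the immunoglobulin M heavy chain, was at 237, 125 and 164 CPM in old and 7.15, 8.13 and 22.1 in young females. Male levels were 244, 137 and 64.6 CPM when old and 5.66, 2.26 and 3.11 when young. Every old library exceeded every young one, and the change was 4.57 ± 0.38 (adjusted p = 1.9e-06). Igkc, the kappa light chain, rose by 3.88 ± 0.43, and Pou2af1, a B cell coactivator, by 2.86 ± 0.43. Of 11 neutrophil markers 9 rose, including S100a8 by 2.90 ± 0.55 and S100a9 by 2.83 ± 0.54, which together form calprotectin. S100a8 was at 19.9, 4.48 and 4.77 CPM in old and 0.117, 1.896 and 0.341 in young males.

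Antigen presentation genes rose in males (15 of 17, and 9 of 17 without young male 2) and 0 of 17 passed in females. Tested as an interaction, the difference between sexes passed for 5 of 17, all lower in females, and for 0 without young male 2. With sexes weighted equally 5 rose, and none did without young male 2 or within library kind. B2m, the light chain of MHC class I, was at 2479.8, 1790.3 and 2155 CPM in old and 1131, 918 and 1118 in young males, and rose in males by 1.02 ± 0.22. Female levels were 1424, 1204 and 1337 CPM when old and 1267, 1489.9 and 1318 when young, with overlap. Of 22 chemokine and NF-kB target genes 12 rose, and 5 within library kind. Tnfaip3, a brake on NF-kB, rose in males by 2.63 ± 0.26, from 1.95, 2.12 and 1.83 to 12.3, 12.3 and 11.9 CPM, and the difference between sexes passed (-1.99 ± 0.35, adjusted p = 0.0019). Vcam1, an adhesion molecule for leukocytes, rose by 1.78 ± 0.36, with old male 1 at the top of 162, 44.2 and 28.1 CPM.

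**Figure D3:**
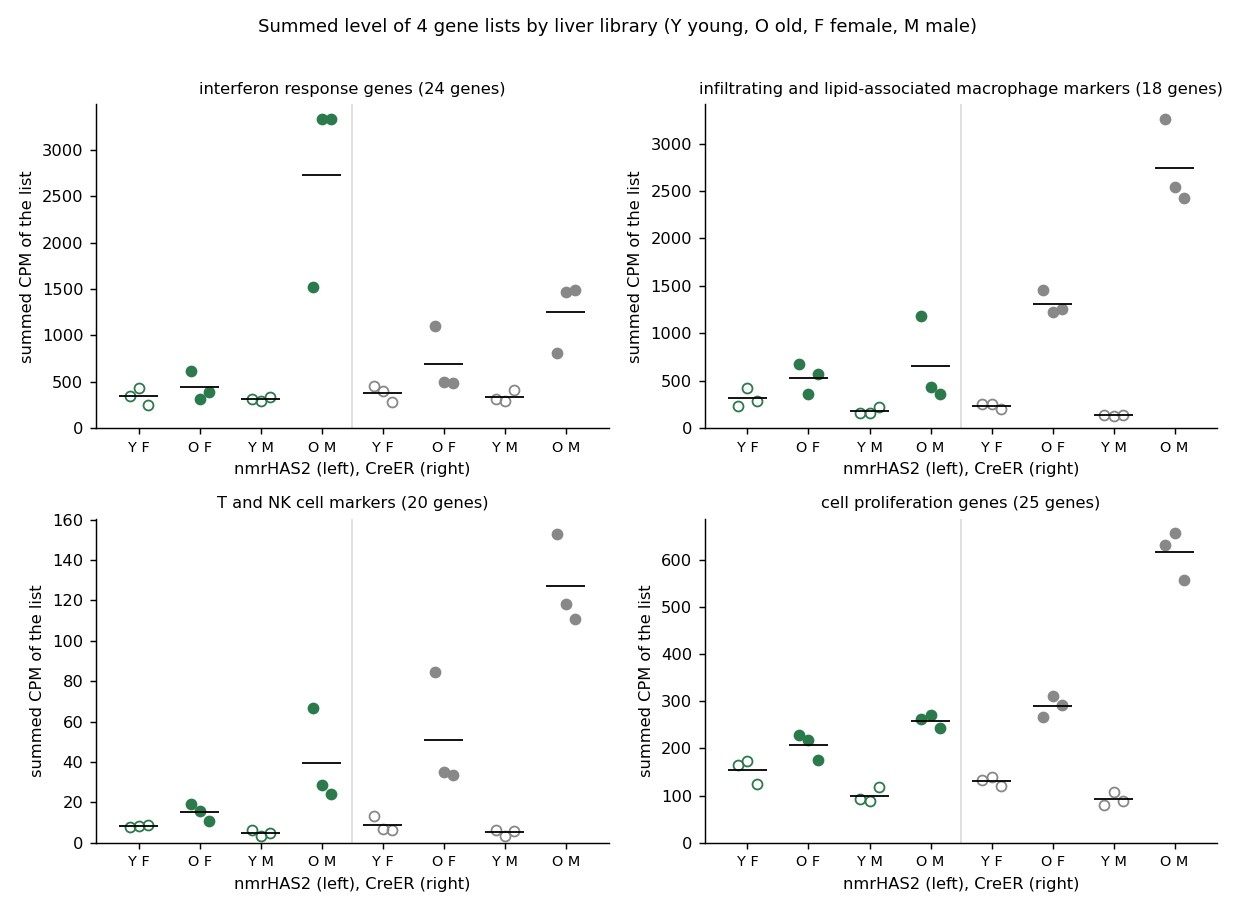
Summed level in CPM (linear axis) of interferon, macrophage, T and NK cell, and proliferation genes in each liver library, by sex, age and genotype, each point 1 library and each bar the mean of 3. Old male nmrHAS2 libraries lie above young ones in all 4 panels, and old male 1 is the lowest of the old nmrHAS2 males for interferon genes and the highest for macrophage and T cell genes.

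Cell proliferation genes rose in old males. By count, 22 of 25 rose in males at a median of 2.12, 0 of 25 passed in females (1 without young male 2) at a median of -0.05, and the difference between sexes passed for 18, all lower in females. With sexes weighted equally 20 rose, and 11 within library kind. Plk1, a kinase of mitosis, was at 1.54, 4.32 and 3.03 CPM in old and 0.0781, 0 and 0.0853 in young males. The female libraries held 0.208, 0.228 and 0.178 CPM when old and 0.159, 0.182 and 0.0349 when young. All old males exceeded all young males, old male 1 the least, and the change was 5.66 ± 0.67 in males (adjusted p = 1.5e-05). Cdk1, the kinase that drives entry into mitosis, rose in males by 2.95 ± 0.42, from 0.742, 1.04 and 1.75 to 5.46, 11.3 and 10.5 CPM. The cyclins Ccna2 and Ccnb2 rose in males by 4.26 ± 0.60 and 4.27 ± 0.63. Mad2l1, of the spindle checkpoint, was at 5.83, 7.496 and 7.98 CPM in old males and 1.72, 0.858 and 1.02 in young males, and differed between the sexes by -2.71 ± 0.33 (adjusted p = 0.00019).

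Among 20 targets of p53 and genes linked to senescence, 11 rose and 0 fell (7 rose within library kind). In males 12 rose and in females 5, or 2 within library kind, and 7 had no overlap of old and young in either sex. Over all genes tested, 13.5% rose in males and 2.91% in females, and 2.79% had old above young without overlap in either sex. As an interaction, the difference between sexes passed for 4 of the 20, all lower in females. Mdm2, the ubiquitin ligase that p53 induces against itself, was at 28.3, 33.5 and 28.5 CPM in old and 20.3, 22.4 and 23.4 in young females. The male libraries held 33.6, 36.3 and 36.7 CPM when old and 23.4, 22.4 and 21.4 when young. The change was small and even, 0.56 ± 0.07 (adjusted p = 4.8e-05). Eda2r, a death-domain receptor that p53 induces, changed by 2.48 ± 0.39, with 7.63, 8.12 and 8.61 CPM in old and 1.81, 2.15 and 1.13 in young females. Phlda3, an inhibitor of Akt, rose by 1.30 ± 0.21. Gdf15, a stress hormone, rose by 1.41 ± 0.21 and more in males, where old libraries were at 10.6, 14.9 and 17.5 and young ones at 3.67, 3.84 and 2.64 CPM (difference between sexes -1.34 ± 0.42, adjusted p = 0.043, and 0.072 within library kind).

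Acute phase genes, plasma proteins that the liver makes more of in inflammation, rose for 10 of 18 with sexes weighted equally, and 0 fell. Over all genes tested, 11.1% rose and 6.06% fell. In females 10 rose at a median of 1.51 (5 within library kind), and in males 3 rose and 1 fell (0 fell without young male 2). The difference between sexes passed for 3, for 1 without young male 2 and for 0 within library kind. Apcs, serum amyloid P, rose alike in both sexes. It was at 432, 228 and 254 CPM in old and 78.7, 94.8 and 70.95 in young females. In males it was at 190.4, 159 and 182 CPM when old and 39.5, 31.4 and 67.7 when young, and the change was 1.92 ± 0.26 (adjusted p = 9.8e-05). Itih4, a plasma protein of the inter-alpha-inhibitor family, was at 6640.4, 4229.7 and 5384 CPM in old and 1883, 2085 and 1473 in young females, a change of 1.58 ± 0.27. In males its change was 0.52 ± 0.26 and did not pass (adjusted p = 0.17), and the difference between sexes did not pass either (adjusted p = 0.066). Fgl1, a fibrinogen-like hepatokine, rose by 1.67 ± 0.27, and Hpx, the haem carrier hemopexin, by 1.16 ± 0.23. Among young males the library numbered 1 was low in the summed list, at 6315, 14452 and 16499 CPM for young males 1, 2 and 3. Crp did not pass (change 0.41 ± 0.16, adjusted p = 0.096). Of 26 complement and coagulation genes 5 rose and 1 fell, against 3 rising without young male 2 and 3 falling within library kind. Cfi, the protease complement factor I, rose by 0.60 ± 0.11 and the lectin Mbl2 by 0.76 ± 0.16, with no overlap in either sex.

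Genes of xenobiotic metabolism fell in old females. Of 26, 10 fell and 0 rose in females at a median of -0.88, and 1 rose within library kind. In males 4 rose and 1 fell at a median of -0.03, or 2 and 2 without young male 2. The difference between sexes passed for 9, all lower in females, and for 5 within library kind. With sexes weighted equally 1 rose and 11 fell, with 2 rising within library kind. Cyp3a11, the main drug-metabolising cytochrome P450 of this family in mouse liver, was at 24.6, 62.3 and 12.03 CPM in old females and 2599, 2859.5 and 4102 in young females. Male levels were 4045, 4555 and 5714 CPM when old and 5434, 3833 and 3477 when young. Every old female library was low and the males overlapped, and the change was -6.60 ± 0.76 in females (adjusted p = 5.5e-05) and 0.17 ± 0.59 in males (adjusted p = 0.88). The difference between sexes was -6.76 ± 0.92 (adjusted p = 0.00033). Old and young CreER females had means of 1064 and 3268 CPM.

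Cyp2e1, which oxidises ethanol, was at 1685, 1730.4 and 969 CPM in old and 7191, 6745 and 9423 in young females, a change of -2.41 ± 0.40, and differed between the sexes (-2.08 ± 0.54, adjusted p = 0.018). Ces2a, a carboxylesterase, fell in females by 1.53 on the log2 scale, from 326, 295 and 381 to 101, 115 and 131 CPM, and missed the threshold within library kind (adjusted p = 0.053). Aox3, an aldehyde oxidase, fell in both sexes, with a change of -1.24 ± 0.20 and no overlap of old and young, but missed the threshold in females within library kind (adjusted p = 0.099). Cyp2c29 did not pass (change -0.08 ± 0.28, adjusted p = 0.87).

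**Figure D4:**
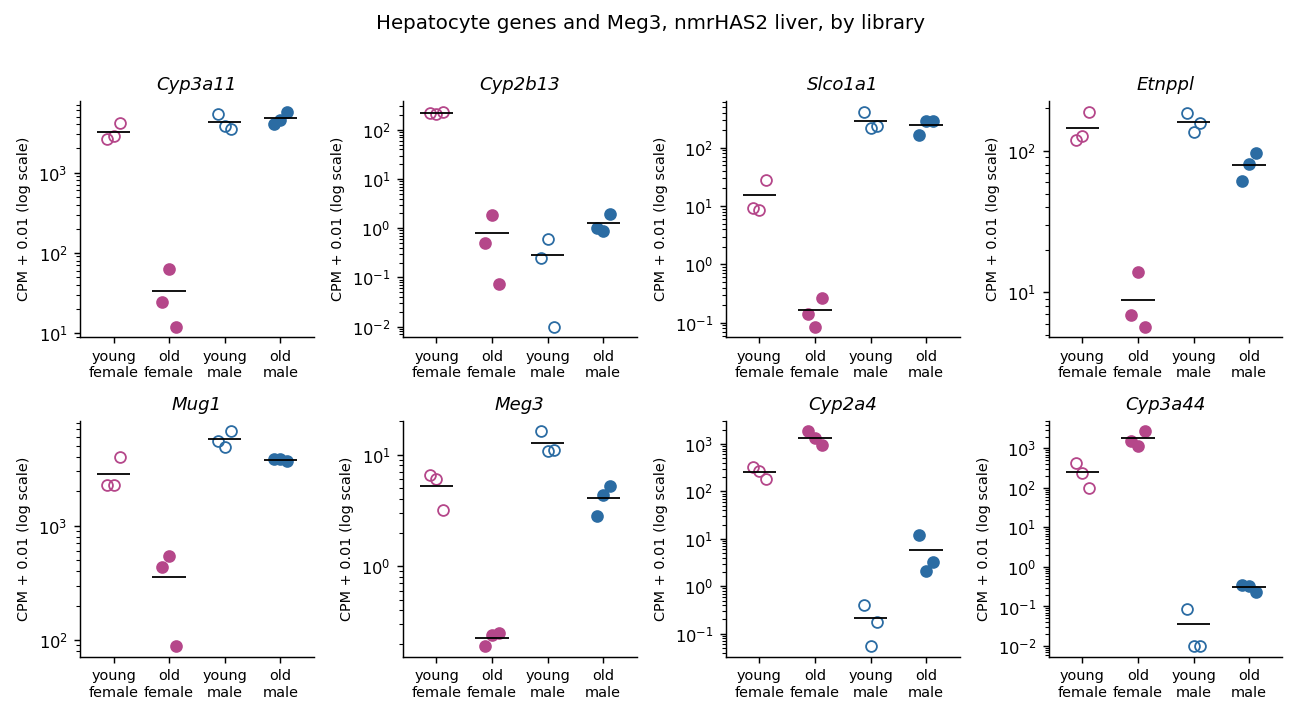
Level of 8 genes, hepatocyte genes and Meg3, in each nmrHAS2 liver library by sex and age, in CPM on a log axis with a small offset so that 0 can be drawn, each point 1 library. Cyp3a11, Cyp2b13, Slco1a1 and Etnppl are low in all 3 old females, and Cyp2a4 and Cyp3a44 are highest there.

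Amino acid and urea cycle genes were lower in old females. Of 25, 8 fell and 0 rose in females, 0 passed in males, and 10 fell with sexes weighted equally (1 within library kind in either comparison), while the difference between sexes passed for 0. Gpt, alanine aminotransferase, was at 83.3, 97.3 and 72.8 CPM in old and 183, 188 and 231 in young females. The male libraries held 98.9, 178 and 192 CPM when old and 237, 243 and 192 when young. Old libraries lay below young ones in both sexes, and the change was -0.89 ± 0.15 (adjusted p = 0.00065, and 0.0038 within library kind). Gnmt, a methyl transfer enzyme, changed by -0.76 ± 0.20 and missed the threshold within library kind (adjusted p = 0.087). Etnppl, a phosphoethanolamine lyase, fell in both sexes and more in females, at 6.86, 13.9 and 5.73 CPM in old and 119, 127 and 189 in young females. In males it was at 61.1, 81.4 and 97.1 CPM when old and 185, 135 and 159 when young, where the call was lost without young male 2 (adjusted p = 0.060), and the difference between sexes passed (-3.05 ± 0.49, adjusted p = 0.0010).

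Of 21 genes of bile acid synthesis and transport 8 fell in females (4 within library kind) and 0 passed in males. For 2 of the 21 the difference between sexes passed, with the lower change in females, and for 0 without young male 2. Abcc3, an exporter of bile acid conjugates, was at 79.7, 119.7 and 12.6 CPM in old and 269, 245 and 276 in young females, with old female 3 the lowest. Nr0b2, the repressor SHP that bile acids induce, fell by 1.26 on the log2 scale with sexes weighted equally. Cyp7a1, the rate-limiting enzyme of bile acid synthesis, rose by 1.53 ± 0.45 (adjusted p = 0.024), a call lost on leaving out any of 5 single libraries (highest adjusted p = 0.062, without young female 1). It was at 183, 263 and 442 CPM in old and 64.1, 91.6 and 115 in young females. Old males overlapped young males for it.

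Nuclear genes of oxidative phosphorylation were slightly lower. Of 39, 15 fell and 1 rose at a median of -0.25, 10 fell in males and 6 fell and 1 rose in females. The fall was called for 5 within library kind, in males for 3 without young male 2, and in females for 0 within library kind. The 1 rise with sexes weighted equally was not called without young male 2. Ndufv1, a subunit of complex I, was at 92.9, 105 and 114 CPM in old and 129, 131 and 163 in young females. Male levels were 77.8, 90.5 and 92.2 CPM when old and 128, 138 and 134 when young. Old lay below young in both sexes (change -0.53 ± 0.08, adjusted p = 0.00024). Sdhc, a subunit of complex II, changed by -0.46 ± 0.08. Of 13 genes encoded in the mitochondrial genome 0 passed with sexes weighted equally (1 rose within library kind), at a median of 0.32. Their summed level was 111832, 31348 and 54866 CPM in young males 1, 2 and 3, with young male 2 the lowest of all 12 libraries.

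Fatty acid oxidation genes showed 2 falls of 24, or 1 without young male 2 and 4 within library kind. In males there were 6 falls and 1 rise, and without young male 2 only 2 falls and 0 rises. Over all genes tested, 11.1% rose and 6.06% fell with sexes weighted equally, and 13.5% rose and 7.56% fell in males. Ppara, the transcription factor of fasting fat oxidation, was at 28.00, 26.7 and 20.4 CPM in old and 68.6, 117 and 89.7 in young males. In females it was at 99.04, 88.99 and 60.5 CPM when old and 96.6, 99.8 and 121 when young, and the sexes differed (1.52 ± 0.33, adjusted p = 0.0075, and 0.089 within library kind). Of 25 fatty acid and triglyceride synthesis genes 1 rose (2 within library kind) and 1 fell, the latter Scd1, stearoyl-CoA desaturase. It was at 44.01, 178 and 122 CPM in old and 1332, 1245 and 522 in young females, a change of -3.17 ± 0.61, against 0.08 ± 0.56 in males. Within library kind neither the change in females (adjusted p = 0.086) nor that with sexes weighted equally (adjusted p = 0.086) passed. Of 25 cholesterol synthesis genes 1 fell, the sterol carrier Stard4 (-0.84 ± 0.16), against 3 falls without young male 2 and 2 falls and 1 rise within library kind. Of 21 glucose metabolism genes 3 fell and 0 rose (1 each without young male 2 and within library kind), among the falls the glucose transporter Slc2a2 (-0.84 ± 0.16), with no overlap in either sex.

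Among genes known to differ between the livers of the sexes, male-biased ones fell and female-biased ones mostly rose where they passed. Of 22 genes known as male-biased 8 fell and 0 rose at a median of -0.80, and of 25 known as female-biased 9 rose and 2 fell at a median of 0.92. Of the former 1 rose within library kind, and of the latter 1 fell without young male 2 and 1 within library kind. Summed, the female-biased genes were at 18008, 16377 and 27357 CPM in old and 8939, 9139 and 5365 in young females, and at 474, 406 and 426 in old and 221, 178 and 181 in young males. Old exceeded young in both sexes without overlap. Cyp2a4, a steroid hydroxylase whose reads are shared with a near-identical copy and whose value is therefore uncertain, was at 1841, 1320.0 and 942 CPM in old and 324, 274 and 185 in young females. The male libraries held 12.2, 2.12 and 3.21 CPM when old and 0.391, 0.0451 and 0.171 when young (change 3.59 ± 0.49, adjusted p = 0.00011). Cyp3a44, uncertain for the same reason, rose in females by 2.82 ± 0.59, to 1529, 1145 and 2695 CPM.

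Cyp2b13, also female-biased, went the other way in females. It was at 0.493, 1.83 and 0.0647 CPM in old and 218, 215 and 232 in young females. In males it was at 0.99, 0.855 and 1.97 CPM when old and 0.234, 0.587 and 0 when young. All old females lay below all young females, and the change was -8.20 ± 0.79 in females (adjusted p = 1.3e-05), with a difference between sexes of -10.41 ± 1.14 (adjusted p = 5.6e-05). With sexes weighted equally its call was lost without young male 2 (adjusted p = 0.14). Cd36, the fatty acid translocase and female-biased, rose by 1.49 ± 0.29, with 165, 93.00 and 89.3 CPM in old and 40.6, 18.1 and 41.9 in young males.

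Among male-biased genes, Slco1a1, an organic anion importer, was at 0.13, 0.0761 and 0.259 CPM in old and 9.32, 8.68 and 27.95 in young females. Male levels were 166, 283 and 289.8 CPM when old and 409.7, 213 and 238 when young, with overlap, and the sexes differed by -6.28 ± 0.77 (adjusted p = 0.00020). Cyp2d9, a testosterone hydroxylase with close copies in its cluster and so uncertain, fell in both sexes, in males from 1401, 1439.5 and 1286 to 585, 585 and 626 CPM, where the call was lost without young male 2 (adjusted p = 0.054). Of 20 major urinary protein genes, which share reads among near-identical copies and are uncertain throughout, 3 fell and 1 rose (5 and 0 within library kind). Of 15 growth hormone and IGF axis genes 1 rose, the prolactin receptor Prlr (1.16 ± 0.29), and 1 fell, the transcription factor Onecut1, against 2 rises and 0 falls without young male 2 and within library kind. Onecut1 was at 5.61, 5.87 and 5.55 CPM in old and 42.4, 116 and 32.7 in young males. Female levels were 16.5, 16.7 and 24.9 CPM when old and 8.64, 10.5 and 7.25 when young. Old males lay below and old females above their young libraries, and the difference between sexes was 4.63 ± 0.65 (adjusted p = 0.00038). Its fall with sexes weighted equally missed the threshold without young male 2 (adjusted p = 0.057) and within library kind (adjusted p = 0.12).

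By count, 7 of 19 circadian clock genes fell in males and 0 of 19 passed in females (1 fell without young male 2). Their medians were alike, at -0.46 in males and -0.48 in females. A difference between sexes passed for 2 of 19, with the higher change in females, and for 0 without young male 2. Without young male 2 only 1 fell in males and 3 with sexes weighted equally. Dbp, a clock output transcription factor, was at 2.34, 61.03 and 5.29 CPM in young males and 0.77, 0.815 and 0.504 in old males. The female libraries held 5.43, 2.61 and 1.34 CPM when old and 2.31, 1.104 and 9.47 when young. Young male 2 was far above every other library, and the change with sexes weighted equally missed the threshold without it (adjusted p = 0.076). Tef and Nr1d1, further clock outputs, were likewise highest in young male 2, at 45.1, 111 and 42.5 and 65.4, 127 and 25.1 CPM in young males 1, 2 and 3. The call of Nr1d1 was lost on leaving out any of 6 single libraries (highest adjusted p = 0.12, without young male 2). Cry2, a repressor of the clock, fell by 0.68 on the log2 scale with sexes weighted equally, and was called without young male 2 as well (adjusted p = 0.013). Clock did not pass (adjusted p = 0.61).

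Among genes averaging 2 CPM or more, the largest rises called without overlap of the ages in either sex began with Prtn3, the neutrophil proteinase 3. It was at 22.4, 1.88 and 1.47 CPM in old and 0.0341, 0.014 and 0.0465 in young females. The male libraries held 10.9, 2.61 and 3.21 CPM when old and 0.273, 0 and 1.49 when young. The first replicate of each old sex was the highest, and the change was 5.59 ± 0.83 (adjusted p = 0.00022). Cdh19, a cadherin, followed with 4.21 ± 0.55, where old female 3 was the highest at 3.97, 2.79 and 20.4 CPM in old females. Slfn4, an interferon-responsive gene of myeloid cells, rose by 3.58 ± 0.48, and Esm1, a proteoglycan of endothelium, by 3.36 ± 0.52. Olfr701, annotated as an olfactory receptor, rose by 3.21 ± 0.59, at 8.44, 5.73 and 4.12 CPM in old and 0.773, 0.894 and 0.465 in young females.

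The largest falls included genes not on the lists. Meg3, an imprinted long noncoding RNA, was at 0.182, 0.228 and 0.243 CPM in old and 6.62, 5.98 and 3.17 in young females. In males it was at 2.79, 4.32 and 5.23 CPM when old and 16.2, 10.7 and 10.96 when young. Old lay below young in both sexes, the change was -3.09 ± 0.31 (adjusted p = 7.5e-06), and it was more negative in females by -2.94 ± 0.61 (adjusted p = 0.0060). Adgrf1, an adhesion receptor, was at 0.0779, 0.0761 and 0.0809 CPM in old and 4.77, 4.71 and 3.45 in young females, a change of -5.73 ± 0.83, with a difference between sexes of -3.89 ± 1.03 (adjusted p = 0.021, and 0.10 within library kind). Abca8a, a lipid transporter, changed by -1.95 ± 0.22, Pcp4l1 by -1.80 ± 0.34 and Cnmd, chondromodulin, by -1.59 ± 0.23. Mug1, a plasma protease inhibitor, was at 438, 548 and 88.6 CPM in old and 2269, 2259 and 4040.1 in young females. Acta1, skeletal muscle actin, was also among the largest falls, yet 8 of 9 skeletal muscle transcripts fell with it (5 within library kind). Their sum was 29.99, 3.004 and 191 CPM in young females, 19.8, 1.58 and 1.83 in young males and 1.10 to 3.82 in the 6 old libraries, so that young females 1 and 3 and young male 1 held the excess.

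Matrix genes were not called more often than all genes tested, of which 11.1% rose and 6.06% fell. Of 23 extracellular matrix and stellate cell genes 2 rose and 1 fell at a median of 0.03, and 0 rose without young male 2 or within library kind. Fn1, fibronectin, went in opposite directions, with a change of -0.73 ± 0.21 in males (adjusted p = 0.021, and 0.069 without young male 2) and 0.85 ± 0.22 in females (adjusted p = 0.022, and 0.23 within library kind), and the difference between sexes passed (1.58 ± 0.30, adjusted p = 0.0035). It was at 1134, 768 and 826 CPM in old and 564, 516 and 431 in young females, and at 700.0, 802 and 785 in old and 905, 1371 and 1512 in young males. Dcn, decorin, rose in males by 0.76 ± 0.17, and its call with sexes weighted equally was lost on leaving out any of 5 single libraries (highest adjusted p = 0.10, without old male 1) and within library kind (adjusted p = 0.056).

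Of 22 genes for hyaluronan synthesis, binding and turnover 8 rose and 3 fell at a median of 0.24, with 4 rising within library kind. RNA of Ugp2 and Ugdh, enzymes that make hyaluronan precursors, was lower in old than in young females, and precursor levels were not measured. Ugp2, which makes UDP-glucose, was at 151, 177 and 215 CPM in old and 456, 373 and 385 in young females. Its change was -1.16 ± 0.17 in females against 0.07 ± 0.17 in males (difference -1.23 ± 0.24, adjusted p = 0.0039, a call not kept within library kind). Ugdh, the next enzyme, which makes UDP-glucuronate, fell in females (-0.77 ± 0.22, adjusted p = 0.038, and 0.35 within library kind) and rose in males (0.67 ± 0.22, adjusted p = 0.034, and 0.17 without young male 2), and the difference between sexes passed (-1.43 ± 0.31, adjusted p = 0.0069). It was at 73.5, 94.04 and 96.6 CPM in old and 162, 138 and 149.5 in young females. Of the degrading enzymes, Hyal1, a lysosomal hyaluronidase, fell in males from 65.8, 55.2 and 60.6 to 21.6, 32.6 and 32.4 CPM, a change of -1.07 ± 0.23. Its change in females was -0.16 (adjusted p = 0.77), and the difference between sexes did not pass (adjusted p = 0.069). Within library kind, with old female 3 alone on the old female side, the change of Hyal1 was -1.14 in females and -1.05 in males. Hyal2 changed by -0.28 ± 0.09, a call lost on leaving out any of 8 single libraries (highest adjusted p = 0.10, without old female 3), and Hyal3 by -0.26 ± 0.46 (adjusted p = 0.75). Cemip2, a cell surface hyaluronidase, fell in males (-0.86 ± 0.25, adjusted p = 0.020, and 0.11 without young male 2) and did not pass in females (0.18 ± 0.24, adjusted p = 0.77). Among lysosomal glycosidases, Hexa rose in males by 0.74 ± 0.21, and Gusb rose by 0.60 ± 0.16 with sexes weighted equally (adjusted p = 0.013) without overlap in either sex.

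Of the hyaluronan receptors, Cd44 was at 44.02, 20.04 and 14.1 CPM in old and 7.73, 9.34 and 7.03 in young males, and rose in males by 1.70 ± 0.38. In females it was at 28.7, 13.96 and 15.3 CPM when old and 9.83, 24.6 and 11.5 when young, with overlap, and the call with sexes weighted equally was lost without old male 1 (adjusted p = 0.053) and within library kind (adjusted p = 0.083). Hmmr, a hyaluronan-binding protein of the mitotic spindle, rose in males by 3.84 ± 0.57 and differed between sexes (-3.75 ± 0.75, adjusted p = 0.0044). Lyve1, a receptor of lymphatic and sinusoidal endothelium, was at 15.8, 25.6 and 34.6 CPM in old and 6.18, 5.32 and 8.33 in young females. Old male 1 was high for it, at 30.7, 5.99 and 3.35 CPM in old males, and the call with sexes weighted equally was lost on leaving out any of 6 single libraries (highest adjusted p = 0.23, without old male 1). The scavenger receptors of the sinusoids, Stab1 and Stab2, did not pass (changes -0.03 ± 0.14 and -0.28 ± 0.16, adjusted p = 0.91 and 0.25).

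Proteins that bind hyaluronan outside the cell were mostly plasma proteins of the liver. Itih3, a heavy chain that is transferred to hyaluronan, was at 3026, 1867 and 1799 CPM in old and 844, 953 and 1246 in young females, a change of 1.14 ± 0.28 (adjusted p = 0.020, and 0.29 within library kind). With sexes weighted equally its call was lost without old female 1 or young female 1 (highest adjusted p = 0.062) and within library kind (adjusted p = 0.14). Itih1, Itih2 and Ambp, the other parts of that complex, changed by -0.02 ± 0.12, 0.11 ± 0.12 and 0.19 ± 0.12 with sexes weighted equally (adjusted p = 0.92, 0.56 and 0.31). Vcan, versican, changed by 1.80 ± 0.56 at under 2 CPM, and its call was lost on leaving out any of 6 single libraries (highest adjusted p = 0.14, without old male 1) and within library kind (adjusted p = 0.052). Hapln1, a link protein, changed by 1.88 ± 0.84 (adjusted p = 0.13). The Toll-like receptors Tlr2 and Tlr4, which respond to hyaluronan fragments, changed by 0.79 ± 0.28 (adjusted p = 0.059) and 0.97 ± 0.29 (adjusted p = 0.025). The call of Tlr4 was lost without old male 1, young female 1 or young male 3 (highest adjusted p = 0.16, without old male 1), and within library kind (adjusted p = 0.066).

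Calls of the other lists stand against 11.1% of all genes tested that rose and 6.06% that fell with sexes weighted equally. Of 24 antioxidant genes 2 rose (4 without young male 2), among them haem oxygenase Hmox1 (1.20 ± 0.30), and 3 fell, among them glutathione peroxidase Gpx1 (-0.59 ± 0.14). Of 20 hepatocyte markers 2 rose and 6 fell (2 fell within library kind). Of 17 fetal liver and liver tumour genes 3 rose, among them the iron-binding lipocalin Lcn2, at 422, 113 and 172 CPM in old and 4.91, 15.2 and 12.7 in young females. Of 23 immediate early genes 4 rose, among them Klf6 (1.25 ± 0.21), and 11 rose and 1 fell without young male 2 (1 fell within library kind). Atf3, a stress-induced factor, rose by 1.25 ± 0.29 and was the 1 call among 22 unfolded protein and stress response genes, of which 2 rose without young male 2. Of 29 cytosolic ribosomal protein genes 1 rose and 1 fell, of 16 heat shock genes 0 passed, and of 16 sinusoidal endothelial markers 1 rose and 1 fell (0 within library kind). Of 11 cholangiocyte markers 2 fell (1 each without young male 2 and within library kind), and of 23 lysosome genes 2 fell (1 within library kind). Of 6 adipocyte markers 1 rose and 4 fell (2 each without young male 2 and within library kind), and Car3, carbonic anhydrase 3, which hepatocytes also make, was at 102, 96.7 and 14.1 CPM in old and 1711, 1540.5 and 523 in young females. Of 12 erythroid markers 2 rose (0 within library kind), of 18 histone genes 2 rose (1 without young male 2, 0 within library kind), and of 3 pancreatic and 2 kidney transcripts 0 passed (1 pancreatic transcript rose within library kind).

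**Figure D5:**
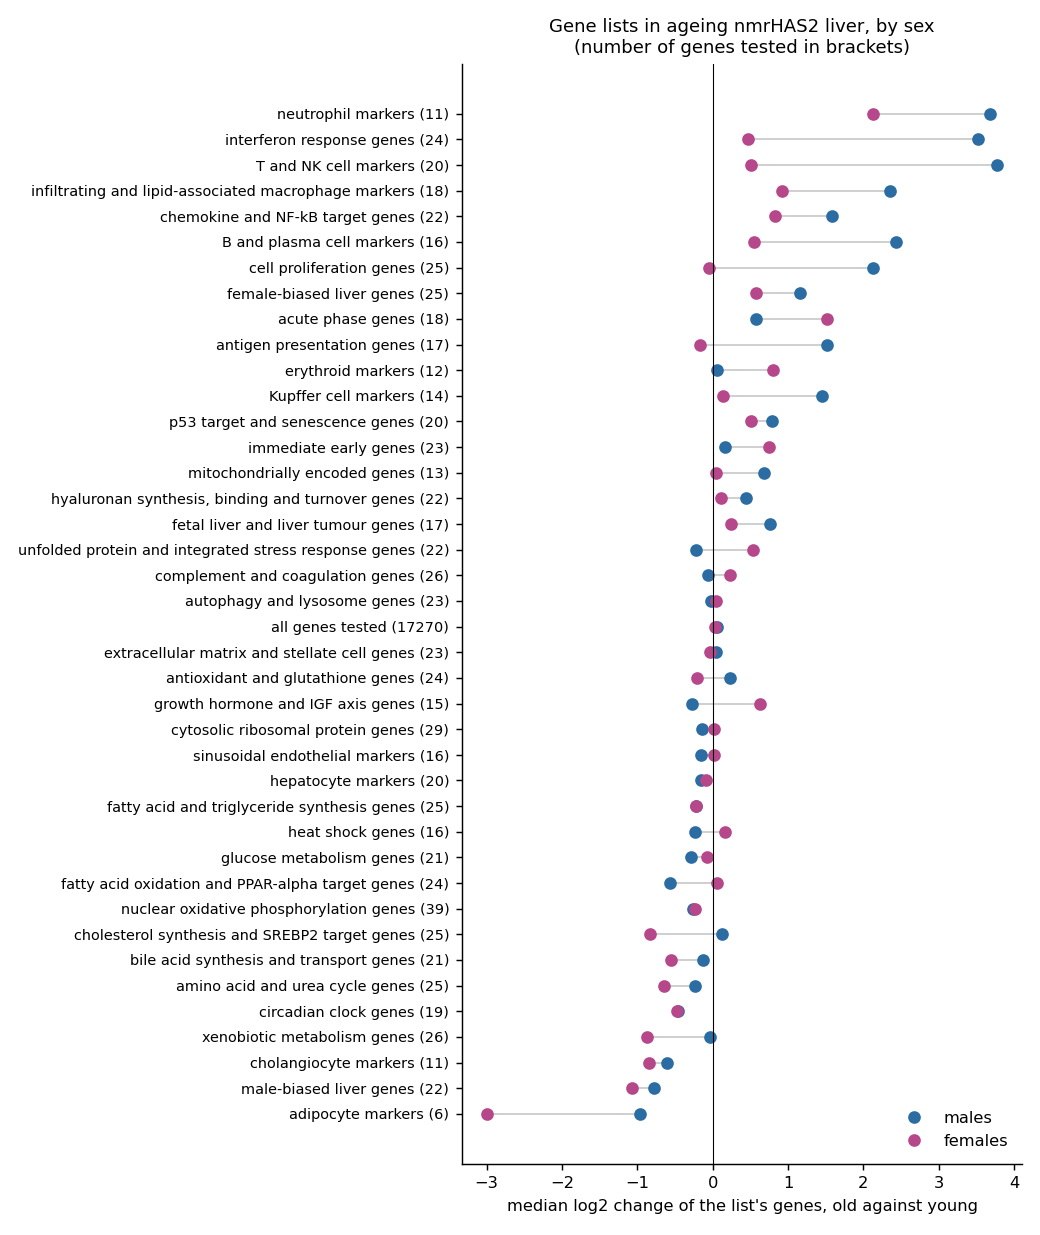
Median log2 change with age of each gene list in male and female nmrHAS2 liver, 1 row per list, with the median over all genes tested for comparison. Interferon, T and NK cell and proliferation lists have medians of 3.52, 3.77 and 2.12 in males and 0.47, 0.51 and -0.05 in females.

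The genes with the smallest p for a difference between sexes, Tafa2, Cyp2b13, Mical3, Mad2l1 and Rapgef1, were of several kinds. Tafa2, a secreted neurokine, was at 3.48, 2.36 and 1.28 CPM in old and 0.0781, 0 and 0 in young males. Female levels were 9.06, 12.7 and 12.3 CPM when old and 10.9, 12.6 and 11.1 when young. The difference between sexes was -6.31 ± 0.63 (adjusted p = 5.6e-05). Mical3, which acts on actin, changed by -1.16 ± 0.13 in males and rose in females by 0.49 ± 0.13 (adjusted p = 0.025, and 0.059 within library kind), and Rapgef1, an exchange factor of small GTPases, changed by -1.21 ± 0.14 in males. Mical3 was at 8.25, 8.19 and 9.26 CPM in old and 16.5, 18.5 and 22.4 in young males.

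Ageing differed from that of the CreER livers for many genes. The change with age was higher in nmrHAS2 for 2391 genes (13.8%) and lower for 2249 (13%), so that 51.5% were higher, against 42.0% with RLE size factors and 41.5% with no filter on low counts. In CreER liver itself 4656 rose (27%) and 4884 fell (28.3%). Of the 2960 nmrHAS2 calls, 2394 were also called in CreER in the same direction, which is 80.9% of the nmrHAS2 and 25.1% of the CreER calls, and 39 in the opposite direction. The difference between genotypes passed for 1224 of them. Of the 18 macrophage markers 17 rose in CreER, and the change was lower in nmrHAS2 for 13. Summed, they were at 3258, 2544 and 2428 CPM in old CreER males against 1186, 431 and 357 in old nmrHAS2 males, with no overlap. Of 23 matrix genes 20 rose in CreER, and the change was lower in nmrHAS2 for 20. Of 25 proliferation genes all 25 rose in CreER, and 17 changed less in nmrHAS2. For 37 of 39 oxidative phosphorylation genes the change was higher in nmrHAS2, and 38 of them fell in CreER. Of 24 interferon genes 21 rose in CreER at a median of 1.83. The difference between genotypes was above 0 for 4 and below 0 for 2 of them, with summed levels of 809.9, 1465 and 1493 CPM in old CreER males. All 20 T and NK cell markers rose in CreER, and the change was lower in nmrHAS2 for 2.

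The 5 genes with the smallest p for a difference between genotypes all changed less in nmrHAS2. Lpl, lipoprotein lipase, rose in nmrHAS2 by 0.90 ± 0.20 and in CreER by 3.44 ± 0.22, a difference of -2.54 ± 0.28 (adjusted p = 8.7e-05). Mpeg1, a macrophage perforin, rose by 1.47 ± 0.17 against 3.67 ± 0.19, and Hmgb2, a chromatin protein of dividing cells, by 0.70 ± 0.16 (adjusted p = 0.0066, and 0.069 within library kind) against 2.71 ± 0.17. Itpripl2 changed by 0.33 ± 0.17 against 2.39 ± 0.18, and Anxa2, an annexin, by 0.20 ± 0.17 against 2.23 ± 0.17. For Cyp3a11 the difference between genotypes was -1.92 ± 0.60 with sexes weighted equally (adjusted p = 0.023), and the change in CreER was -1.29 ± 0.43.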

How the data were processed

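Total RNA came from frozen liver by Trizol extraction, DNase digestion and RNeasy columns, per the labels' protocols. Reads were trimmed with Trim Galore 0.6.5 and quantified with Salmon 1.4.0, per the submitters' processing notes. The reference is not given in the sources used here. The authors deposited 1 table of estimated counts for 40946 genes in 144 libraries, which were rounded to whole numbers here. All 24 liver libraries were fitted as 8 group means in edgeR 4.0.16 (R 4.3.3): filterByExpr, TMM scaling and the quasi-likelihood F test, 2-sided, with Benjamini-Hochberg adjustment over 17270 genes and a threshold of 0.05. Each standard error was obtained from the log2 change and its F. Recovery of known changes was tested on simulated counts.

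The 45 gene lists and the members were chosen with earlier results of these data known. Named genes were the 12 largest rises and falls among called genes averaging 2 CPM or more whose ages did not overlap in either sex (predicted, pseudogene, immune receptor and sex chromosome-specific transcripts and RNAs without a poly(A) tail left out), the 5 smallest p of each interaction, up to 4 called and 2 uncalled members per list, and the hyaluronan genes, of which 1 is not reported here. Interferon promoters came from a RefSeq table. Alternatives were RLE size factors, no filter, DESeq2 1.42.0, a replicate block, library kind as a term, only the groups compared, within library kind, and each library left out. The libraries' totals, given above, set the counting precision.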

Additional observations from a re-analysis of the deposited data

Results flagged for a closer look

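The change with age differed between females and males for 48 of the 127 genes named above, by the interaction term of edgeR's quasi-likelihood test at an adjusted p under 0.05. Over all 17270 genes tested the difference was above 0 for 4.91% and below 0 for 6.91%. The named genes were picked in part by this same test and by their change with age, so their share follows in part from that choice. Values are the log2 change in females minus that in males, and 42 of them are below 0. Since all male and all female libraries differ in their share of RNAs without a poly(A) tail, sex and library preparation cannot be told apart in these values. The difference was -2.45 for Abca8a, -3.89 for Adgrf1, -1.06 for B2m, -1.60 for Bst2, -3.88 for Ccl5, -4.02 for Ccna2, -4.52 for Ccnb2, -2.54 for Cdk1 and -1.15 for Ces2a. It was -10.41 for Cyp2b13, -1.94 for Cyp2d9, -2.08 for Cyp2e1, -6.76 for Cyp3a11, -3.05 for Etnppl, -2.68 for Gbp3, -1.34 for Gdf15, -6.22 for Gzmk and -1.42 for Hmgb2. Values were -3.75 for Hmmr, -4.99 for Ifi44, -4.48 for Ifit1, -4.91 for Ifit3, -2.77 for Irf7, -4.37 for Isg15, -1.29 for Lpl, -2.71 for Mad2l1 and -2.94 for Meg3. It came to -2.07 for Mpeg1, -2.40 for Mug1, -2.61 for Oas1a, -3.36 for Oasl2, -7.27 for Pdcd1, -4.96 for Plk1, -3.14 for Pou2af1, -3.26 for Scd1 and -6.28 for Slco1a1. Also below 0 were -4.07 for Slfn4, -6.31 for Tafa2, -1.99 for Tnfaip3, -1.43 for Ugdh, -1.23 for Ugp2 and -2.51 for Vsig4. Above 0 it was 4.54 for Dbp, 1.58 for Fn1, 1.65 for Mical3, 4.63 for Onecut1, 1.52 for Ppara and 1.55 for Rapgef1. Without young male 2, 7 of the 48 missed the threshold in the same test. Among them were Dbp at 1.92 (adjusted p = 0.29), B2m at -0.98 (0.067), Ccl5 at -3.37 (0.067) and Gzmk at -6.23 (0.086). Calls not kept within library kind included Dbp at 3.31, Ces2a at -0.99, Bst2 at -1.28 and Cdk1 at -2.20.

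The change with age differed between nmrHAS2 and CreER liver for 58 of the named genes by the interaction term of the same test, with sexes weighted equally. Over all genes tested it was higher in nmrHAS2 for 13.8% and lower for 13%, and the named genes were again picked in part by this test. Values are the log2 change in nmrHAS2 minus that in CreER. Lower in nmrHAS2 were the changes of these genes, by values of -8.49 for Acta1, -2.03 for Anxa2, -2.47 for C1qb, -2.94 for Cd4, -2.12 for Cd44, -1.41 for Cdk1, -0.89 for Cemip2, -3.39 for Chil3 and -1.92 for Cyp3a11. Acta1 belongs to the skeletal muscle transcripts, which were in excess in young nmrHAS2 females 1 and 3 and young male 1, as given above. The difference stood at -0.81 for Dcn, -1.04 for Gusb, -1.39 for Hexa, -2.01 for Hmgb2, -1.78 for Hmox1, -2.06 for Itpripl2, -1.21 for Klf6, -2.54 for Lpl and -1.93 for Lyve1. Further values below 0 were -0.93 for Mad2l1, -1.56 for Mmp12, -2.19 for Mpeg1, -1.23 for Oas1a, -0.84 for Phlda3, -3.20 for S100a8, -2.61 for S100a9, -0.60 for Stab1 and -0.85 for Stab2. To these add -2.56 for Tlr2, -2.38 for Tlr4, -1.66 for Tnfaip3, -2.72 for Trem2, -2.75 for Vcam1, -3.16 for Vcan and -2.67 for Vsig4. Higher in nmrHAS2 were the changes with values of 0.79 for Aox3, 2.33 for Cdh19, 1.04 for Ces2a, 0.57 for Cfi, 2.03 for Cnmd, 0.84 for Crp, 0.62 for Cry2, 1.54 for Cyp2c29 and 2.01 for Cyp7a1. The difference also stood above 0 at 0.61 for Gpt, 0.57 for Gpx1, 1.93 for Ifit1, 1.63 for Isg15, 0.79 for Itih4, 1.25 for Mbl2, 0.27 for Mdm2, 1.40 for Meg3 and 0.88 for Mical3. Further values above 0 were 0.53 for Ndufv1, 1.26 for Prlr, 0.42 for Sdhc, 3.49 for Slco1a1, 0.72 for Ugdh and 0.60 for Ugp2.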

How the results depend on the processing

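With RLE size factors, no filter on low counts or library kind as a term, all 5 counts of calls stayed within 1.5 times the reported ones. Fits on only the groups compared called 1465 genes with age, 492 in males, 445 in females and 622 as different between sexes. DESeq2 called 1659 in females and 3103 as different between sexes. Leaving out 1 library at a time gave 1874 (without old male 1) to 3933 (without young male 1) calls with age, 1842 to 4959 in males with the same 2 libraries, 446 (without young female 1) to 808 (without old female 2) in females, 1117 (without young female 2) to 3522 (without young male 1) between sexes, and 3615 to 5269 between genotypes. Counts more than 1.5 times off were also 2348 in males without young male 2, 715 and 485 in females without old female 1 and young female 2, and 1336 between sexes without old female 2. Within library kind 1352 genes were called as different between sexes. Within library kind 55.4% of the female calls were higher, against 45.7% as reported. In young male 2, genes of a level near 3 counts are limited by depth.

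The replicate numbers did not pair the libraries: 0 of 6 same-numbered pairs had deviations correlated above 0.1 (-0.09 to 0.04). With the replicate number as a block, 2948 genes were called with age, 3676 in males, 1036 in females, 2082 between sexes and 4720 between genotypes.

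Over the named genes, 4768 combinations of gene and alternative kept direction and side of the threshold, 324 lost the call, 63 gained it and 1 reversed: Snora73b, a small nucleolar RNA without a poly(A) tail, changed by 2.02 without young male 2 and within library kind, and the cause was not tested. Single-sex calls of genes and their differences between sexes were recomputed without young male 2 and within library kind only. Of the 85 male calls among genes named above 17 were lost without young male 2, of the 55 female calls 20 within library kind, and of the 48 differences between sexes 7 and 15, with 0 changes of sign.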
